A study of Mus musculus with 4 samples.

Results

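The mitochondrial ribosomal protein genes were taken as the genes whose symbol begins with Mrpl or Mrps and a number, Mrpl for the large subunit and Mrps for the small one. The array named 76 such genes, 47 of the large and 29 of the small subunit, among 18193 genes in all. Each gene is represented by its brightest probe set, and all 76 were bright enough to be tested, among 11581 genes tested. The cells were T29, a line from a thymic lymphoma of the mouse that, by the series' description, lacks Ikaros, a lymphoid transcription factor. All 4 samples had been transduced with MigR1-MLER, which carries an inducible dominant-negative form of the Notch co-activator Mastermind. The ethanol group (2 arrays) received the solvent and the 4OHT group (2 arrays) 100 nM 4-hydroxytamoxifen, the ligand that switches on oestrogen receptor fusions, each for 24 h. No sample without the construct and no other cell line was analysed here, so an effect of 4OHT that does not pass through the construct cannot be told apart from the effect of the construct. Nothing in the labels says that the replicates were separate cultures, so each p-value reflects the spread among these arrays alone, and that spread may be technical.

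The mitochondrial ribosome makes the few proteins encoded by mitochondrial DNA, which are core subunits of the respiratory chain and the ATP synthase. Its ribosomal RNAs come from mitochondrial DNA, but every protein of its large and small subunits is encoded in the nucleus, made in the cytosol and imported. Part of these proteins descend from bacterial ribosomal proteins and keep their numbers, and the others were added during the evolution of mitochondria. Growing T cells make more of these proteins, and MYC, a known Notch target in T-cell leukaemia, is known to raise many genes of mitochondrial biogenesis.

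Promoters are shown for 5 members: the 3 members that fell and have an entry (Mrpl12, Mrpl17 and Mrps6), the member with the largest change in the other direction (Mrpl9) and a member that holds an E-box beside a YY1 motif (Mrpl36). The RefSeq promoter table, build GRCm38.p6, held windows for 67 of the 76 genes, and each stretch below runs from 250 bases before the annotated start to 30 bases after it, 5′ to 3′ on the gene's strand. Capitals mark matches on either strand to 5 short motifs: CACGTG, the E-box bound by MYC and MAX; GCGCATGC, of NRF1; CCGGAAG, of ETS factors such as GABP; AAGATGGC, of YY1; and TGGGAA, of RBPJ, the DNA-binding partner of Notch.
Mrpl12 (chr11:120484387-120484666, plus strand): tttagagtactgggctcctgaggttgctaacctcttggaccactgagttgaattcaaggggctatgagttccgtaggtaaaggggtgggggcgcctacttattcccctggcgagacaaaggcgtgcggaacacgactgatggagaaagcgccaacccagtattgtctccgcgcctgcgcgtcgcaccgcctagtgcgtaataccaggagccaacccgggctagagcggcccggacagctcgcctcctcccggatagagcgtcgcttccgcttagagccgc
Mrpl17 (chr7:105811058-105811337, minus strand): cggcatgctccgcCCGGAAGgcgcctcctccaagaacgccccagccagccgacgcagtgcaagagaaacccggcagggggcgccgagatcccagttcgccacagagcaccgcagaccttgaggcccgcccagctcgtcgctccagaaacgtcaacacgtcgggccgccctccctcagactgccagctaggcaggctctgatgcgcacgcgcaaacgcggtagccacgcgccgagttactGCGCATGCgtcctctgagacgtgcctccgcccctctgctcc
Mrps6 (chr16:92058086-92058365, plus strand): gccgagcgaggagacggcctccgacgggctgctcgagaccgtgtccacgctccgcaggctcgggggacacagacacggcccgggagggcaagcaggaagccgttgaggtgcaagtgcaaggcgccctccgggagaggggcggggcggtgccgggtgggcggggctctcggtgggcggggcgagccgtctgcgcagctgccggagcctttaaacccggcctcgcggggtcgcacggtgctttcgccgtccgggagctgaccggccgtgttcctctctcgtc
Mrpl9 (chr3:94443086-94443365, plus strand): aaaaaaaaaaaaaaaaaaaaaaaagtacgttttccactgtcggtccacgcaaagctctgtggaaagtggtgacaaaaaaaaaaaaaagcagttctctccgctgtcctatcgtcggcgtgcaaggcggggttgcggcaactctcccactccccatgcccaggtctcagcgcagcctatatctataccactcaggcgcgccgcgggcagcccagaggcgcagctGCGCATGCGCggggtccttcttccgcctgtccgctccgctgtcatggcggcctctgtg
Mrpl36 (chr13:73330759-73331038, plus strand): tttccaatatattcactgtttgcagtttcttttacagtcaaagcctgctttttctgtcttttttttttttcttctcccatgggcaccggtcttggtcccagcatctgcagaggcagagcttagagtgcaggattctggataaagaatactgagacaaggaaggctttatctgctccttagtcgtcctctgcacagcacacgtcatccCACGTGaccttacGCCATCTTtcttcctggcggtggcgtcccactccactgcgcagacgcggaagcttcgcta

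The windows of Mrpl12 and Mrps6 hold none of these letters, while Mrpl17 has an ETS match and an NRF1 match whose first base stands at -11 from the start. Mrpl9 has 2 overlapping NRF1 matches, at -28 and -26, and Mrpl36 an E-box at -43 and a YY1 match at -30. Over the full windows, which reach 50 bases past the start, CCGGAAG stood in 25 of 67 member genes (37.3%), against 20.5% of the 9376 tested genes with a window and 9.93% of all 27025 genes in the table. AAGATGGC was found in 12 members (17.9%), against 5.42% of the tested genes, and GCGCATGC in 8 (11.9%), against 5.99%. CACGTG stood in 5 members (7.46%), where 11.6% of the tested genes had it, and TGGGAA in 20 (29.9%), where 26.6% did. The median changes of members with and without a motif were -0.28 with and -0.20 without CACGTG, -0.19 and -0.22 for TGGGAA, -0.13 and -0.23 for CCGGAAG, -0.26 and -0.20 for AAGATGGC, and -0.16 and -0.22 for GCGCATGC (log2 change, 4OHT minus ethanol). Of the 3 members that fell and have a window, none holds CACGTG, AAGATGGC or TGGGAA. A match describes the letters in the window and is not a shown binding site, and no match says only that these letters are not in this window.

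The mitochondrial ribosomal protein genes were a little lower with 4OHT, in both subunits and by similar amounts. Of 76 genes, 66 had a log2 change below 0, where 52.3% of all genes tested did. On 63 of them both 4OHT arrays lay below both ethanol arrays, an order found for 30.2% of all genes tested. The median change was -0.22 for the large subunit (range -0.57 to 0.32) and -0.24 for the small subunit (range -0.74 to 0.05), against -0.012 for all genes tested. A change of this size passed the test in few genes. With limma at an adjusted p under 0.05, 7 of 76 fell (5 of the large and 2 of the small subunit), where 3.57% of all genes tested were called lower, and none rose, where 3.9% were called higher. At an unadjusted p under 0.05 the counts were 37 lower and 1 higher, where 13.2% and 12.3% of all genes tested were. The calls rest on all 4 arrays, and a fit without 1 of them leaves 1 array in a group, so only its medians are given. Without any 1 array (ethanol replicate 1 or 2, 4OHT replicate 1 or 2) the large subunit median stayed between -0.20 and -0.22. That of the small subunit stayed between -0.21 and -0.22. The 7 calls became 3 when the probe sets of a gene were averaged (Mrpl12, Mrps6 and Mrps28), where 3.33% of all genes tested were called lower, a share close to that of the members. They became 4 without the probe sets whose suffix marks possible cross-hybridisation (Mrpl12, Mrpl15, Mrpl17 and Mrps6), of 73 members tested, where 3.06% of all genes tested were called lower. With the testing floor at the 60th percentile all 76 remained, 9 were called lower, where 6.08% of the 8356 genes were, and 66 lay below 0, where 49.5% of these genes did.

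The shift was seen in every pairing of a 4OHT array with an ethanol array. For the large subunit the median difference of the 4 pairings lay between -0.22 and -0.19, with 37 to 43 of 47 genes below 0. For the small subunit it lay between -0.23 and -0.20, with 26 to 28 of 29 genes below 0. These pairings reuse the same 4 arrays. Between the 2 ethanol arrays the median difference, replicate 2 minus replicate 1, was -0.0088 for the large and -0.036 for the small subunit, and between the 2 4OHT arrays -0.030 and -0.053. The distance between the groups was therefore larger than that between arrays of one group. The probe sets of the members were also steady, with a median within-group SD of 0.054, against 0.096 for all genes tested. They were brighter too, with a median level of 10.27 against 8.27, and the part of signal in this steadiness was not tested.

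**Figure D1:**
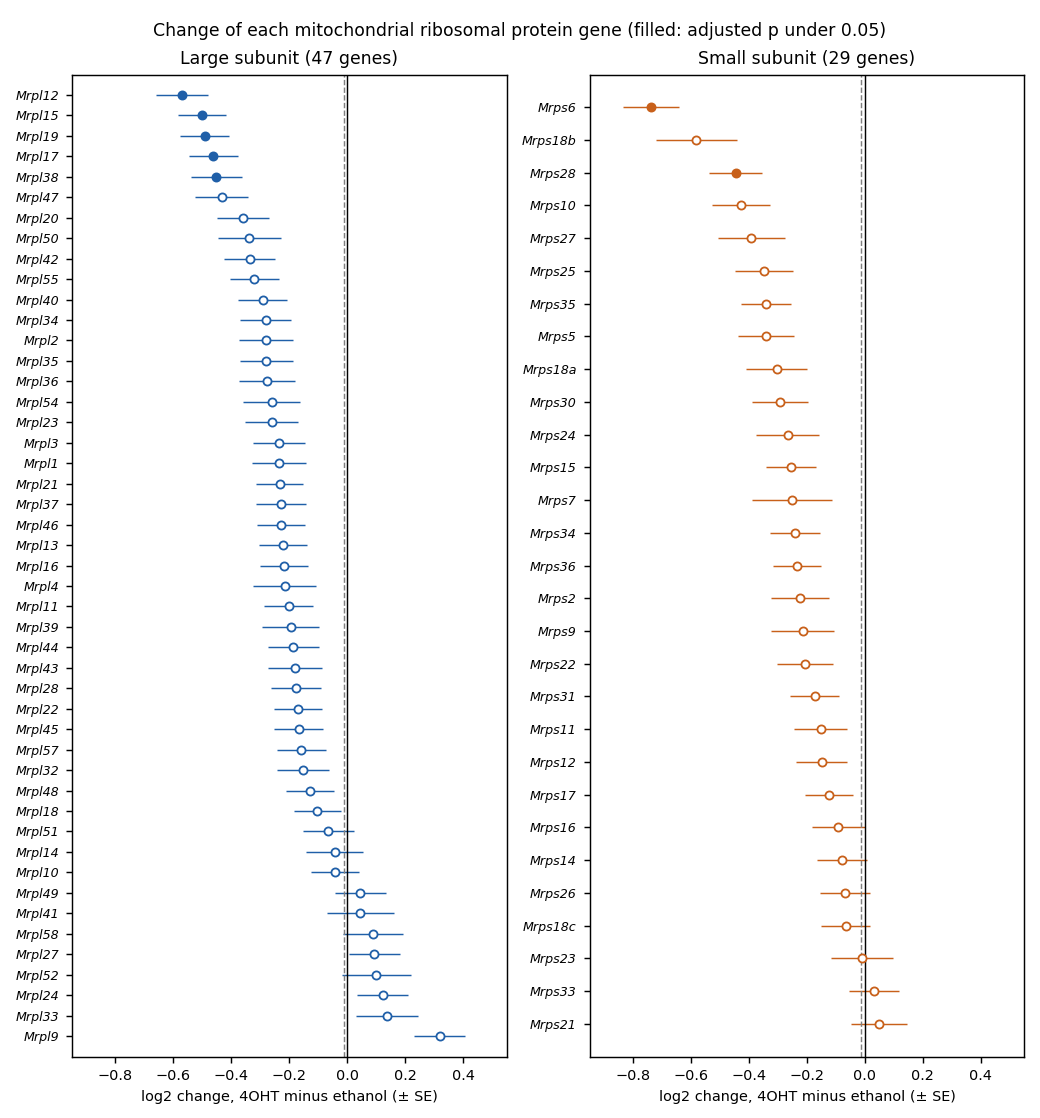
Log2 change of each gene (4OHT minus ethanol); bars are the standard error from limma, for the large subunit (left, 47 genes) and the small subunit (right, 29 genes). Filled points passed at an adjusted p under 0.05, the solid line is 0 and the dashed line is the median of all genes tested, -0.012; 39 large and 27 small subunit genes lie left of 0.

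The called large subunit genes were Mrpl12, Mrpl15, Mrpl19, Mrpl17 and Mrpl38. Mrpl12 is the counterpart of bacterial L7/L12, the stalk protein that recruits translation factors, and is also known to bind the mitochondrial RNA polymerase. It stood at log2 levels of 11.56 and 11.53 (ethanol) against 11.03 and 10.93 (4OHT). The groups were well apart, and the gene fell 1.48-fold (log2 change -0.57 ± 0.09 SE, limma adjusted p = 0.0286, n = 2 each). Its only probe set is the one used, and its window is the first printed above.

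Mrpl15 and Mrpl17 are counterparts of bacterial L15 and L17, which bind the large ribosomal RNA, and Mrpl19 is that of L19, at the face that meets the small subunit. Mrpl15 was at 11.21 and 11.20 (ethanol) against 10.72 and 10.69 (4OHT), a 1.42-fold fall (log2 change -0.50 ± 0.08 SE, limma adjusted p = 0.0305). Mrpl19 was at 10.03 and 10.01 (ethanol) against 9.56 and 9.50 (4OHT) and fell 1.41-fold (limma adjusted p = 0.0326). Mrpl17 was at 10.22 and 10.22 (ethanol) against 9.78 and 9.73 (4OHT) and fell 1.38-fold (limma adjusted p = 0.036). In all 3 genes the replicates of a group lay far closer to each other than the groups did, and the groups did not overlap. The probe set of Mrpl15 is of a kind that can cross-hybridise, as is the next brightest (-0.47); a pair of bright ones of other kinds gave -0.48 and -0.44, and 3 dimmer ones -0.033, -0.42 and -0.13. That of Mrpl19 is also of such a kind. The next brightest gave -0.42 and a dimmer one -0.27, and without probe sets of such a kind Mrpl19 was not called. The other probe set of Mrpl17 above the testing floor, a dim one (mean level 5.55), gave -0.17. None of these 3 genes was called when the probe sets of a gene were averaged. Gcfc2, a coding gene that overlaps Mrpl19 in the RefSeq table, was at a log2 change of -0.061.

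Mrpl38 belongs to the proteins found only in mitochondrial ribosomes and lies in the central protuberance of the large subunit. It was at 9.03 and 9.08 (ethanol) against 8.56 and 8.65 (4OHT), lower on both 4OHT arrays, and fell 1.37-fold (log2 change -0.45 ± 0.09 SE, limma adjusted p = 0.0425). This rests on a probe set that can cross-hybridise. The dimmer probe sets of the gene gave -0.11 and -0.27, and without probe sets that can cross-hybridise Mrpl38 was not called. Nor was it called with no filter on dim genes, with averaged probe sets or with all probe sets tested separately.

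Of the small subunit, Mrps6 and Mrps28 fell. Mrps6, the counterpart of bacterial S6 on the platform of the small subunit, had the largest change of all members. Its log2 levels were 9.15 and 9.005 (ethanol) against 8.39 and 8.30 (4OHT), with no overlap, a 1.67-fold fall (log2 change -0.74 ± 0.10 SE, limma adjusted p = 0.0209). The probe set used is of a kind that can cross-hybridise. A second, of another kind, gave -0.69, and Mrps6 was still called without probe sets that can cross-hybridise. Slc5a3, the myo-inositol transporter gene, overlaps Mrps6 in the RefSeq table. Its own probe set was at 7.85 and 7.79 (ethanol) against 7.13 and 7.38 (4OHT), and it also fell (log2 change -0.57, limma adjusted p = 0.0446). Among 20 genes that overlap a member there, 19 were tested and Slc5a3 was the 1 called, and how far the transcripts of this pair are told apart by the probes was not tested. Mrps28, a counterpart of bacterial S1, was at 10.43 and 10.30 (ethanol) against 9.91 and 9.93 (4OHT) and fell 1.36-fold (log2 change -0.45 ± 0.09 SE, limma adjusted p = 0.0494). Mrps28 lies at the edge of the threshold. It was not called with no filter on dim genes or with a further quantile normalization. Nor was it called without probe sets that can cross-hybridise or with all probe sets tested separately.

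**Figure D2:**
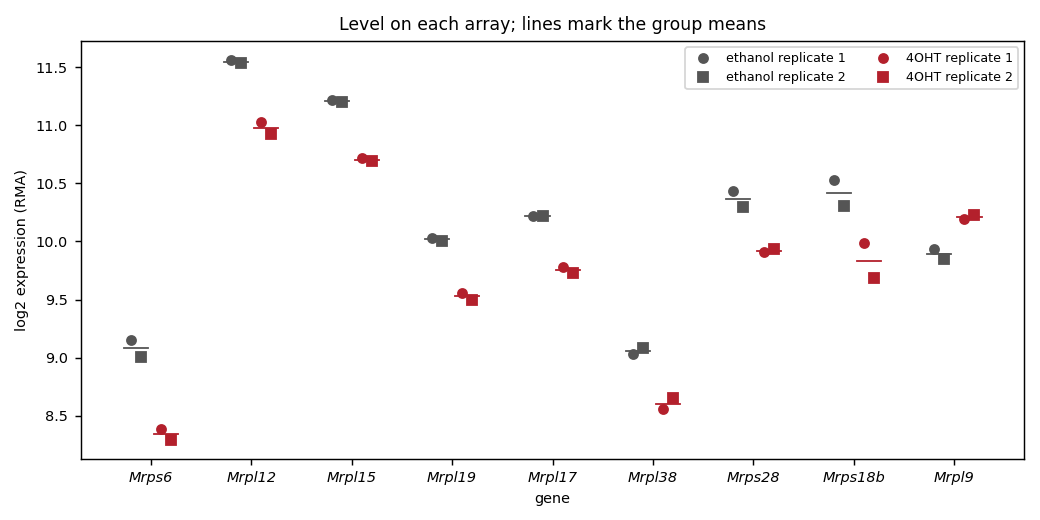
Log2 expression on each of the 4 arrays for the 7 called members, Mrps18b and Mrpl9; grey is ethanol, red is 4OHT, circles are replicate 1, squares are replicate 2, and lines are group means of 2 arrays. In the 7 called genes and Mrps18b both 4OHT arrays lie below both ethanol arrays, while in Mrpl9 both lie above.

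Several members came near the threshold without passing. Mrpl47, the counterpart of bacterial L29 at the exit of the peptide tunnel, was at 10.13 and 10.17 (ethanol) against 9.65 and 9.78 (4OHT) (-0.43 ± 0.09 SE, limma adjusted p = 0.0522). Mrpl20, a counterpart of the early assembly protein L20, had a change of -0.36 from 11.22 and 11.11 (ethanol) against 10.83 and 10.78 (4OHT) (limma adjusted p = 0.0774). Mrpl42, specific to mitochondria, had -0.34 from 11.59 and 11.54 (ethanol) against 11.27 and 11.19 (4OHT) (limma adjusted p = 0.0829). In the small subunit these were Mrps10, Mrps18b and Mrps35. Mrps10, of the head of the small subunit, was at 10.53 and 10.36 (ethanol) against 10.04 and 9.98 (4OHT) (-0.43, limma adjusted p = 0.063). Mrps35, specific to mitochondria, was at 10.00 and 9.91 (ethanol) against 9.61 and 9.62 (4OHT) (-0.34, limma adjusted p = 0.0791). In all 5 of these genes both 4OHT arrays lay below both ethanol arrays, as in 30.2% of all genes tested. The genes were picked by p, which favours this order.

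The 3 genes named after bacterial S18 showed different amounts. Mrps18b was at 10.53 and 10.30 (ethanol) against 9.99 and 9.68 (4OHT), with a mean difference of -0.58 ± 0.14 SE larger than in 6 of the 7 called genes, but the arrays of each group lay far apart and it did not pass (limma adjusted p = 0.0696). Mrps18a, whose product was later located in the large subunit of the mammalian particle, was at 10.37 and 10.31 (ethanol) against 10.14 and 9.93 (4OHT) (-0.30, limma adjusted p = 0.15). Mrps18c, the closest counterpart of S18 itself, was at 11.29 and 11.29 (ethanol) against 11.24 and 11.20 (4OHT) (-0.07, limma adjusted p = 0.656). None of the 3 was called, and the difference between them was not tested.

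The remaining members are given by the size of their change, which the plot of all members shows. In the large subunit Mrpl50 and Mrpl55 lay between -0.4 and -0.3. Another 16 lay between -0.3 and -0.2: Mrpl1, Mrpl2, Mrpl3, Mrpl4, Mrpl11, Mrpl13, Mrpl16, Mrpl21, Mrpl23, Mrpl34, Mrpl35, Mrpl36, Mrpl37, Mrpl40, Mrpl46 and Mrpl54. They include Mrpl3 and Mrpl4, of the rRNA-binding core, Mrpl11, at the base of the stalk, and Mrpl23, at the tunnel exit. A further 10 lay between -0.2 and -0.1: Mrpl18, Mrpl22, Mrpl28, Mrpl32, Mrpl39, Mrpl43, Mrpl44, Mrpl45, Mrpl48 and Mrpl57, among them Mrpl44, with a ribonuclease III-like fold, and Mrpl45, which ties the ribosome to the inner membrane. Mrpl10, Mrpl14 and Mrpl51 lay between -0.1 and 0. None of these was called.

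Values per array follow for the brightest and dimmest probe sets of the large subunit. Mrpl51, with the brightest probe set of the large subunit, was at 11.92 and 11.97 (ethanol) against 11.93 and 11.84 (4OHT), and the groups overlapped. Mrpl13, an rRNA-binding protein, followed at 11.82 and 11.79 (ethanol) against 11.60 and 11.57 (4OHT) (-0.22), and Mrpl18 at 11.59 and 11.57 (ethanol) against 11.47 and 11.48 (4OHT) (-0.10). In both the groups did not overlap. The dimmest probe sets were those of Mrpl1, Mrpl38 and Mrpl54. Mrpl1, of the stalk that guides the leaving tRNA, was at 8.36 and 8.22 (ethanol) against 8.05 and 8.06 (4OHT) (-0.23), and Mrpl54 at 9.17 and 9.22 (ethanol) against 8.85 and 9.02 (4OHT) (-0.26). Mrpl1 had the lowest signal of all 76 and lay above the testing floor of 4.81.

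In the small subunit Mrps5, Mrps18a, Mrps25, Mrps27 and Mrps35 lay between -0.4 and -0.3. Mrps27, an RNA-binding protein of the pentatricopeptide repeat family, had the dimmest probe set, at 8.67 and 8.75 (ethanol) against 8.19 and 8.45 (4OHT) (-0.39, limma adjusted p = 0.107). Another 9 lay between -0.3 and -0.2: Mrps2, Mrps7, Mrps9, Mrps15, Mrps22, Mrps24, Mrps30, Mrps34 and Mrps36. Mrps11, Mrps12, Mrps17 and Mrps31 lay between -0.2 and -0.1; Mrps12 is part of the decoding centre. Mrps31 was at 9.05 and 9.03 (ethanol) against 8.90 and 8.83 (4OHT) (-0.17, no overlap). Between -0.1 and 0 stood Mrps14, Mrps16, Mrps18c, Mrps23 and Mrps26. Mrps14, Mrps18c and Mrps16 had the brightest probe sets of the subunit. Mrps14 was at 11.63 and 11.65 (ethanol) against 11.60 and 11.51 (4OHT) (-0.08) and Mrps16 at 11.11 and 11.09 (ethanol) against 11.07 and 10.95 (4OHT) (-0.09), so the distance between the groups was small in both. Only limma calls are counted as falls here, so none of the genes of this paragraph fell.

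The 10 members with a change above 0 were Mrpl9, Mrpl24, Mrpl27, Mrpl33, Mrpl41, Mrpl49, Mrpl52 and Mrpl58 of the large and Mrps21 and Mrps33 of the small subunit. Mrpl9, the counterpart of bacterial L9, stood out among them. It was at 9.93 and 9.85 (ethanol) against 10.19 and 10.22 (4OHT), both 4OHT arrays above both ethanol arrays, with a log2 change of 0.32 ± 0.09 SE that did not pass (limma adjusted p = 0.0917). Its other probe sets gave 0.27 and 0.46, so all 3 probe sets of the gene pointed the same way. With an intensity trend in the prior variance Mrpl9 was called higher, and it is the 1 member called so under any setting at this threshold. Mrpl24, near the tunnel exit (0.12), Mrpl27, which reaches the peptidyl transferase centre (0.09), and Mrpl33 (0.14) also had both 4OHT arrays above both ethanol arrays, as 26.7% of all genes tested had. The groups overlapped in the other 6. Among these Mrpl58, a release factor relative built into the large subunit, was at 11.13 and 11.04 (ethanol) against 11.27 and 11.08 (4OHT).

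Proteins with a bacterial counterpart and those specific to mitochondria differed little in median change. By their numbering, the 27 large subunit genes up to Mrpl36 had a median change of -0.22, with 4 called lower, and the 20 with higher numbers -0.19, with 1 called lower. Over all genes tested 3.57% were called lower. The split by number is rough, since Mrpl47 belongs with the bacterial proteins. In the small subunit the medians were -0.24 for the 18 genes with a counterpart and -0.24 for the 11 others, with 2 and 0 called lower in limma. At an unadjusted p under 0.05, 7 and 6 were lower, where 13.2% of all genes tested were. Mrps18a and Mrps30 were located in the large subunit of the solved mammalian ribosome, and Mrps36 is now assigned to a metabolic enzyme complex. With these 3 moved or left out, the medians were -0.22 for each subunit and the same 5 and 2 calls stood.

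Other probe sets of the same genes gave a check within these arrays. The 76 genes had 156 probe sets, and 34 genes had another one above the testing floor. Of these 63 other probe sets, 56 had the sign of the chosen one. Among the 32 with a mean level of 8 or more it was 31, the exception being a probe set of Mrpl49, whose chosen one was near 0. Across these pairs Pearson's r was 0.71; the pairs share arrays and RNA, and several come from one gene, so no p is given. When all 139 probe sets of members above the floor were tested among 20967, 3 were called lower, of Mrpl12 and Mrps6, where 1.59% of all probe sets tested were, and 116 had a change below 0.

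**Figure D3:**
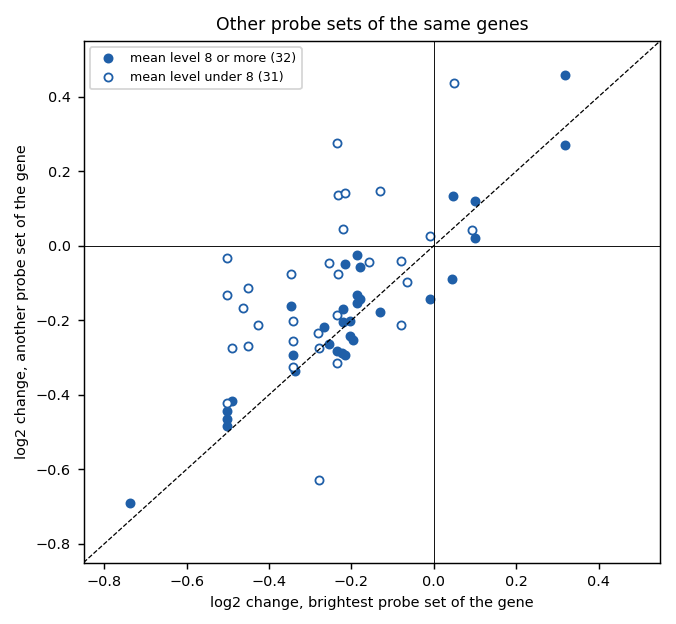
Log2 change of 63 other probe sets (vertical) against that of the brightest probe set of the same gene (horizontal), 4OHT minus ethanol; filled points have a mean level of 8 or more, and the dashed line marks equal change. Of the 32 filled points, 31 lie on the same side of 0 on both axes.

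The change was weakly related to the signal of the probe set over the 76 members (Pearson's r = 0.29, Spearman's rho = 0.30, across genes on the same 4 arrays, so with no p). Dimmer members lay somewhat lower. Signals of different probe sets do not give the relative abundance of their transcripts.

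In the other lists of mitochondrial gene expression most genes also lay below 0, and called genes, where there were any, all fell. Over all genes tested, 3.57% were called lower, 3.9% were called higher and 52.3% lay below 0. Of 13 tested mitochondrial translation factor genes 2 fell, none rose, and the median was -0.17. Lrpprc, which stabilises mitochondrial mRNAs, was at 9.84 and 9.92 (ethanol) against 9.35 and 9.45 (4OHT) (log2 change -0.48 ± 0.090 SE, limma adjusted p = 0.0386). Tsfm, the elongation factor Ts that recharges EF-Tu, was at 9.34 and 9.25 and then at 8.79 and 8.89 (-0.46, limma adjusted p = 0.0448). Both genes were lower on both 4OHT arrays. Tufm, the elongation factor Tu itself, was at -0.26 (limma adjusted p = 0.132).

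Of 23 genes for ribosome assembly and rRNA maturation in mitochondria 3 fell, where 3.57% of all genes tested did, and none rose. The median was -0.091. The 3 were Mrm1, a methyltransferase of the large ribosomal RNA (-0.51, limma adjusted p = 0.0305), Noa1, a GTPase needed for mitochondrial translation (-0.52, limma adjusted p = 0.0361), and Fastkd2, an RNA-binding assembly factor (-0.47, limma adjusted p = 0.0448). In these 3 the groups did not overlap, while in 12 of the 23 genes they did. Both 4OHT arrays lay below both ethanol arrays in 10 of the 23, an order found for 30.2% of all genes tested. Of 19 mitochondrial aminoacyl-tRNA synthetase and amidotransferase genes 1 fell, Yars2 (-0.56, limma adjusted p = 0.0305), again beside 3.57% of all genes tested. In this list 16 lay below 0, with a median of -0.15. Gatb (-0.43, limma adjusted p = 0.0541) and Rars2 (-0.29, limma adjusted p = 0.102) were next.

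None of 9 genes for transcription and replication of mitochondrial DNA was called in limma. At an unadjusted p under 0.05, 1 was lower, where 13.2% of all genes tested were. The median was -0.16. Tefm, the transcription elongation factor, was at -0.41 (limma adjusted p = 0.107), the single-strand binding protein gene Ssbp1 at -0.26 (limma adjusted p = 0.217) and the helicase gene Twnk at -0.20 (limma adjusted p = 0.249). Mitoribosomal proteins with other symbols were 4, with none called and 2 lower at an unadjusted p under 0.05: Gadd45gip1 (-0.41, limma adjusted p = 0.072), Ptcd3 (-0.30, limma adjusted p = 0.0956), Chchd1 (-0.21, limma adjusted p = 0.272) and Dap3 (0.0083). The median of these 4 was -0.26.

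Against the oxidative phosphorylation and cytosolic ribosomal protein genes, the members lay lower. The lists described above lay closer to the members. Their medians were -0.17 for translation factors, -0.16 for mitochondrial DNA transcription and replication, -0.15 for aminoacyl-tRNA synthetases and -0.091 for ribosome assembly. Of 79 tested genes for oxidative phosphorylation subunits, the nuclear partners of what the mitoribosome makes, 59 lay below 0 with a median of -0.060, and 1 fell: Atp5g1, a gene of subunit c of the ATP synthase (-0.42, limma adjusted p = 0.0436). Over all genes tested 52.3% lay below 0 and 3.57% were called lower. Ndufa5 was at -0.33 (limma adjusted p = 0.152) and Cox7a2l, a relative of a cytochrome c oxidase subunit, at 0.22 (limma adjusted p = 0.17). Of 47 tested cytosolic ribosomal protein genes 23 lay below 0 with a median of 0.00072, and none was called. At an unadjusted p under 0.05, 3 were lower, where 13.2% of all genes tested were. Those 3 were Rpl14 (-0.42, limma adjusted p = 0.0604) and a pair of genes that share the name pattern without being core ribosomal proteins, Rpl7l1 (-0.41, limma adjusted p = 0.0766) and Rps19bp1 (-0.32, limma adjusted p = 0.102). The probe sets of the cytosolic group had a median signal of 13.96, close to the highest value on the arrays, 14.6, against 10.27 for the mitochondrial group. The part of this difference in signal in the difference of the changes was not tested, nor was the difference between the groups.

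**Figure D4:**
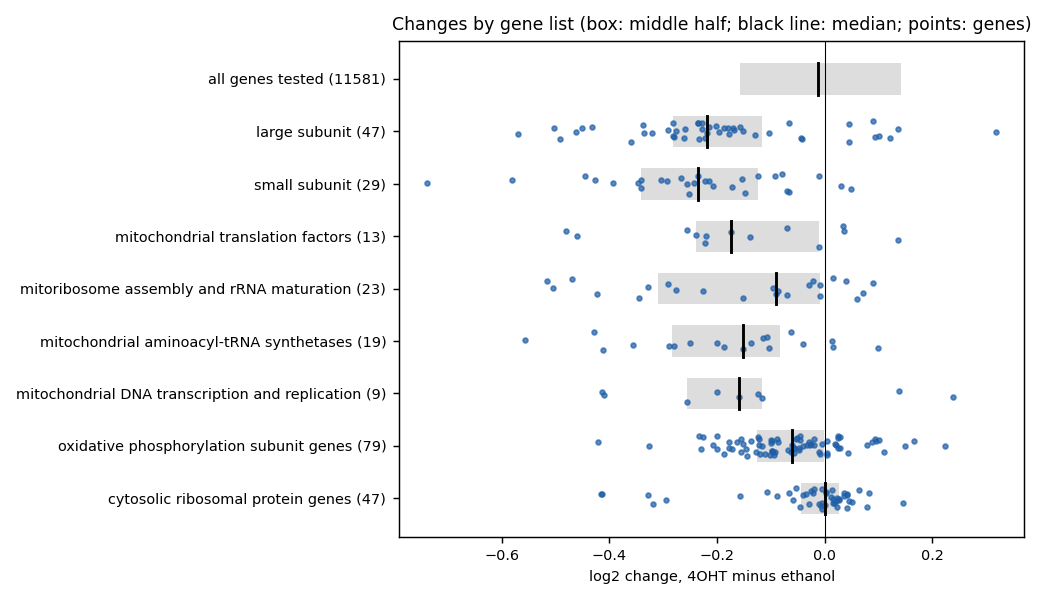
Log2 change, 4OHT minus ethanol, by gene list, with the number of genes tested in brackets; boxes run from the lower to the upper quartile, black lines are medians and points are genes (none drawn for all genes). The medians of the large and small subunits are -0.22 and -0.24, those of oxidative phosphorylation and cytosolic ribosomal protein genes -0.060 and 0.00072.

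**Figure D5:**
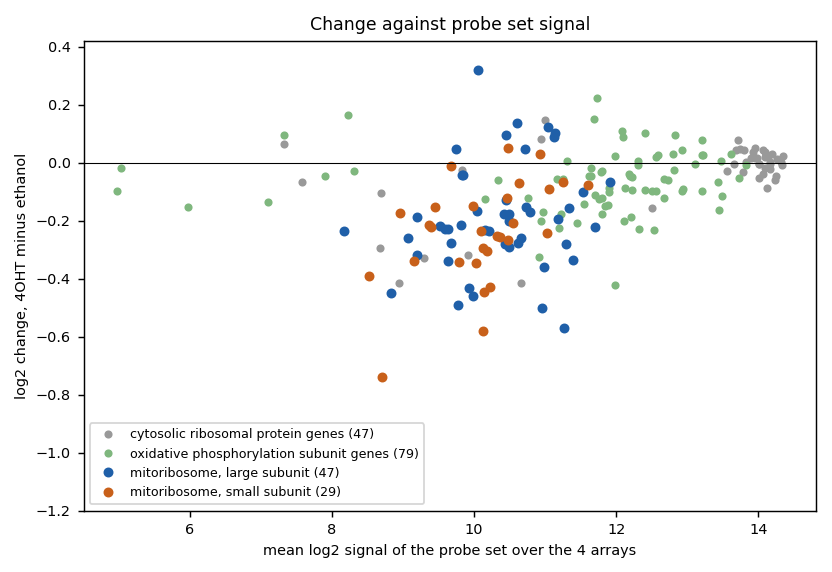
Log2 change, 4OHT minus ethanol, against the mean log2 signal of the probe set over the 4 arrays, for large (blue) and small (orange) subunit members and for oxidative phosphorylation (green) and cytosolic ribosomal protein genes (grey). The members lie between signals of 8.17 and 11.9, and most of the grey points near 14.

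Notch targets, cell type markers and control probe sets were read on the same arrays. The Notch target gene Dtx1 was at 9.41 and 9.43 (ethanol) against 6.01 and 6.01 (4OHT) (limma adjusted p = 0.000506). All 7 Notch targets examined fell, where 3.57% of all genes tested were called lower, and Myc fell least, by 0.74 on the log2 scale. These 7 were chosen with earlier results of these data known, so their fall is no independent check of the labels. Of 9 T-cell markers 7 were named on the array, at mean levels of 7.64 to 12.98, with Cd3e, Cd3d, Cd3g and Thy1 above 11 on every array; Cd3g fell (-0.57) and Cd8a rose (0.83). Of 14 markers of B, myeloid, erythroid, stromal and epithelial cells 11 were named, and all but Pdgfrb (8.14 to 8.65) lay at 6.09 or lower on every array. Only 1 B-cell, 1 myeloid, 1 erythroid and 2 stromal and epithelial markers were above the testing floor, and none of these was called. Both stromal and epithelial ones were lower on both 4OHT arrays, 1 of them at an unadjusted limma p under 0.05. Pearson's r over genes tested was 0.995 within each group and 0.983 to 0.987 between groups. The control probe sets for 18S rRNA had 3′ minus 5′ differences of 0.051 and 0.32 (ethanol) against 0.90 and 0.82 (4OHT), which moves with the groups, while that of the Actb control was 0.40 and 0.49 and then 0.43 and 0.45; the part of the 18S shift in the changes of the members was not tested.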

How the data were processed

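RNA of T29 cells was measured on 4 Affymetrix arrays. The deposited values are log2 expression per probe set, which the authors obtained by RMA, as listed per the submitters' processing notes. RMA version: not given in the sources used here. This scale was read from the values (2.25 to 14.6, array medians 5.12 to 5.14). RMA gives no detection call. The number of arrays, 2 a group, limits the precision.

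Of 45101 probe sets, 34945 named 1 gene, 932 named several, and the others are unnamed here. Of the 18193 genes, 18032 matched the RefSeq table (GRCm38.p6) by gene number. Mrpl30 and Mrpl53 were named only by probe sets that also name another gene. Each gene took its probe set with the highest mean, and genes under the 40th percentile (4.81) were not tested. The contrast of 4OHT and ethanol was fitted by limma 3.58.1, R 4.3.3 (no block, no trend) with Benjamini-Hochberg adjustment over 11581 genes. The fit was tested on simulated data with the same SD for every gene and independent arrays. That setting is simpler than these arrays, so it gives no support to single calls. Any member could be named; values per array are given for called members, the 3 brightest, 3 dimmest and 3 nearest the threshold of each subunit, and any with an opposite change over 0.2. Of each other mitochondrial or ribosomal list, the 3 with the smallest p are named. The Notch targets named (Dtx1 and Myc) and the cell type markers named did not follow this rule. Mrps18a, Mrpl58, Chchd1 and Dap3 were added after their values were seen. Members and lists were chosen with earlier results of these data known, so lists are described by counts and medians without a set test. Alternatives covered filters, normalization, probe set choice, prior trend, thresholds, a replicate block and each array left out.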

Additional observations from a re-analysis of the deposited data

How the results depend on the processing

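Both medians stayed below 0. None of the members chosen by rule for values per array changed sign under the alternatives that give 1 value per gene. Of the 63 other probe sets of members above the floor, 7 had the other sign than the chosen one. They include a dim probe set of Mrpl13 (mean level 5.53, change 0.045). The counts of calls moved with nearly every choice. Against 5 large and 2 small subunit genes called lower, limma called 1 large subunit gene with a gene's probe sets averaged (3.33% of all genes tested). With all probe sets tested separately it called 1 large subunit probe set (1.59% of all probe sets tested). Without _x_at and _s_at probe sets it called 3 large and 1 small subunit genes (3.06% of all genes tested). With no filter these were 4 and 1 (1.89%), and with a further quantile normalization 5 and 1 (3.93%). The share of all genes tested called lower, 3.57% as reported, moved too. An intensity trend gave 9 and 5 (5.49% of all genes), an adjusted p under 0.1 gave 9 and 6 (7.12%) and an adjusted p under 0.01 gave 0 and 0 (0.19%; 24 and 13 at an unadjusted p under 0.05). The trend and the threshold of 0.1 each added 1 large subunit gene called higher, Mrpl9. Leaving out each array in turn left 1 array in a group, so no calls are counted for it. The large subunit median moved to -0.17 with averaged probe sets and -0.19 with all probe sets. The labels do not say that a replicate number marks a shared batch; over genes tested, same-numbered arrays deviated together with a correlation of 0.34 (0.12 over the members). With the replicate number as a block, 9 large and 8 small subunit genes were called lower, where 8.9% of all genes tested were. The cause of these differences was not tested. No depth is known for arrays.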
